A study of Mus musculus with 3 samples.

Results

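The Notch genes described here are 10 members chosen by symbol from the 32285 genes of the count tables: the receptors Notch1, Notch2 and Notch3, the ligands Dll1, Dll4, Jag1 and Jag2, and the targets Hes1, Hey1 and Heyl. All 10 were detected in each of the 3 single-cell RNA-Seq libraries of mouse costal diaphragm. WT CD came from male C57BL/6J mice given chow to 2 months of age and kept on it as control diet for 6 months. WT HFD came from male C57BL/6J mice given chow for the same time and then a high-fat diet with 45% of its kcal from lipid for 6 months. KO HFD came from whole-body Thbs1-/- mice, kept on a C57BL/6J background, that received the same high-fat diet for 6 months. According to the study each library pooled the muscle of a pair of mice, and no map from cells to mice was used here. Dissociation with collagenase and removal of dead cells by sorting were used to obtain mononuclear cells, per the labels.

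Notch receptors are membrane proteins that are cut when they bind a Delta-like or Jagged ligand on a neighbouring cell. The freed intracellular part enters the nucleus, joins the DNA-binding protein RBPJ and switches on targets such as the Hes and Hey repressors. In muscle tissue the pathway is best known for keeping muscle stem cells (MuSCs) quiescent, for arterial identity in endothelium, and for Notch3-dependent maturation of the mural cells (pericytes and smooth muscle) that wrap vessels.

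The libraries held 4132 (WT CD), 3774 (WT HFD) and 4369 (KO HFD) cell barcodes with 34312860, 31967976 and 36478779 unique molecular identifiers (UMIs). Pairs of libraries shared 7, 7 and 2 barcodes. The levels below are CPM, the UMIs of a gene per 1000000 UMIs summed over the cells of one class in one library, with exact Poisson 95% intervals that cover counting error only. Because there was 1 library per group, no p-value is given and a difference between libraries cannot be told apart from a difference between mice or preparations. Thbs1 itself stood at 136 CPM in WT CD, 202 CPM in WT HFD and 163 CPM in KO HFD over all cells, and at 205, 219 and 249.8 CPM in fibro-adipogenic progenitor (FAP)-like cells. It was thus not lower in the FAP-like cells of the KO HFD library, whereas it was lower there in neutrophil-like and tenocyte-like cells (values at the end). Whether the counted 3' tag lies outside the deleted part of the gene was not tested, so these counts do not check the label. KO HFD below means the library so labelled.

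Cells were clustered without the Notch genes and each cluster was named "-like" from marker genes, which gave 15 classes with at least 50 cells. They included 4726 FAP-like, 1201 MuSC-like, 824 macrophage-like, 784 endothelial-like, 274 lymphatic-like and 67 mural-like cells, and 2945 of the 12275 cells stayed unnamed. A class of 124 barcodes (23, 52 and 49) led by the muscle fibre genes Sln, Tnnc2 and Myl1 was named myofiber-like, and whether these are fibre pieces or cells that hold fibre RNA was not tested. The defining markers were present where the names say: over the 3 libraries the summed level of Flt1, Pecam1, Ptprb and Cdh5 was 4159 to 5022 CPM in endothelial-like cells, and that of Pax7, Myf5, Cdh15, Chodl and Calcr was 1182 to 1417 CPM in MuSC-like cells. In the 3 libraries 5 of the 10 Notch genes had one and the same highest class. For 3 of the 10 (Notch3, Jag2 and Hey1) the lowest library of the highest class lay above the highest library of the next class. The median over the 10 genes of the log2 ratio between the highest class and the next was 0.35, so for most members the leading pair of classes lay close together.

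**Figure D1:**
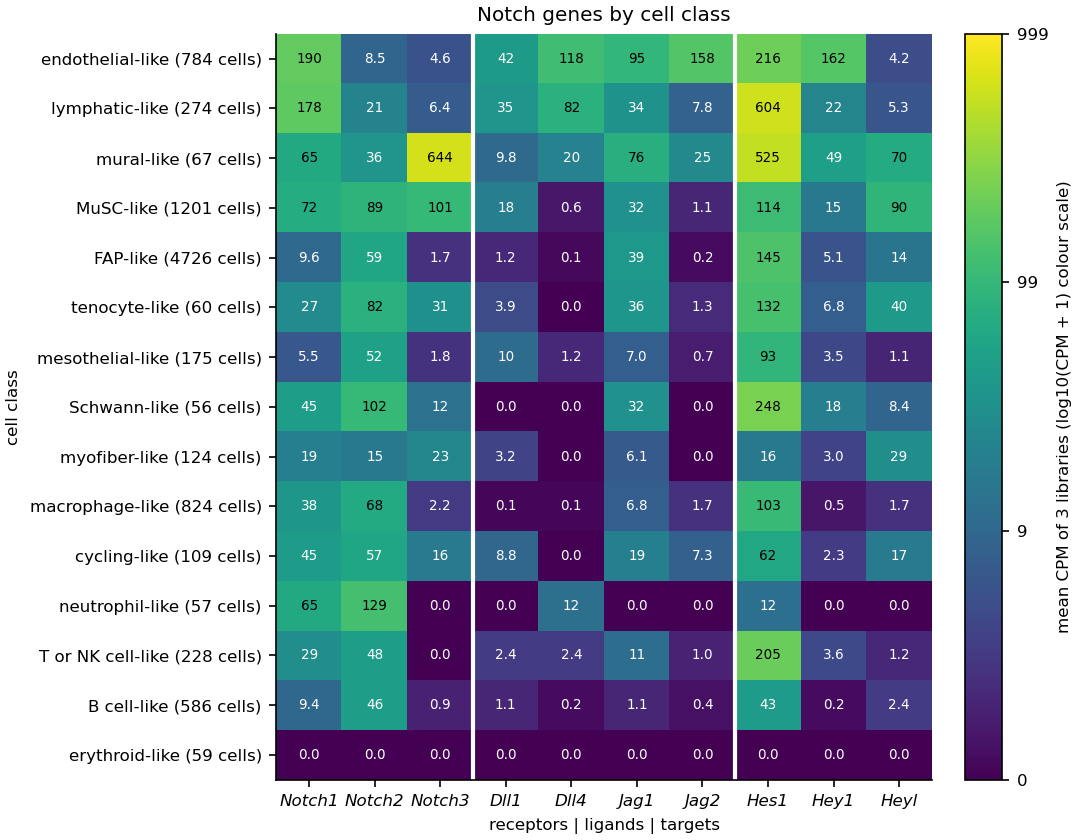
Level of each Notch gene (columns, receptors, ligands and targets from left to right) in each of 15 cell classes (rows, with cell numbers); numbers and colours are the mean CPM of 3 libraries on a log colour scale. Ligands Dll4 and Jag2 and the target Hey1 were highest in endothelial-like cells, Notch3 in mural-like cells at 644 CPM, and Notch2 was spread over most classes.

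Among the receptors, Notch1 was highest in the endothelium of blood and lymph vessels. In endothelial-like cells it stood at 223 CPM in WT CD, 189.9 CPM in WT HFD and 158 CPM in KO HFD. In lymphatic-like cells it stood at 171, 208 and 153 CPM in the same order. The blood and lymph values overlapped, with endothelial-to-lymphatic ratios of 1.30 (95% counting interval 0.993 to 1.73), 0.911 (0.744 to 1.12) and 1.03 (0.784 to 1.36). MuSC-like cells held 54.98, 80.5 and 79.4 CPM, below both endothelial classes in every library. Their range overlapped those of mural-like cells (58.9 to 70.6 CPM on 26 UMIs) and neutrophil-like cells (35.8 to 106 CPM on 8 UMIs). Macrophage-like cells held 37.4 to 38.5 CPM of Notch1, and FAP-like cells 8.41 to 10.2 CPM.

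Notch2 had a different distribution in the endothelium and in FAP-like cells, while MuSC-like cells held both receptors. FAP-like cells held 56.9, 59.7 and 60.9 CPM, MuSC-like cells 73.8, 96.5 and 96.5 CPM, and macrophage-like cells 75.4, 64.7 and 64.0 CPM. Endothelial-like cells, the leading class for Notch1, held only 7.80 to 9.05 CPM of Notch2 (28 UMIs in all), the lowest of the classes in which any Notch2 was counted. Neutrophil-like and Schwann-like cells had the highest mean levels (129 and 102 CPM), but these rested on 16 and 23 UMIs and their ranges overlapped those of MuSC-like cells, so the top of the Notch2 order was not resolved at this depth. Because FAP-like cells were so numerous, they contributed 43.1% to 45.2% of all Notch2 UMIs in each library. This share leaves out the unnamed clusters with FAP markers led by Dio2 and by Sfrp2, so it is not the share of all stroma. The Dio2 cluster held a further 136, 155 and 130 Notch2 UMIs and the Sfrp2 cluster 155, 107 and 134. The libraries held 1735, 1778 and 2211 in all.

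Notch3, the receptor of mural cells, was highest in mural-like cells in each library. Mural-like cells held 900.4 CPM in WT CD (51 UMIs in 14 cells), 516 CPM in WT HFD (105 UMIs in 30 cells) and 517 CPM in KO HFD (79 UMIs in 23 cells). MuSC-like cells came next at 123, 98.8 and 82.3 CPM, which put mural-like cells 7.32-fold (5.30 to 9.94), 5.22-fold (4.06 to 6.69) and 6.28-fold (4.82 to 8.12) higher. FAP-like cells held 1.52 to 1.75 CPM. At least 1 Notch3 UMI was found in 83.6% of mural-like cells (median 4696 UMIs per cell) and in 39.4% of MuSC-like cells (median 5067 UMIs), against 0.683% of B cell-like cells (median 7417 UMIs), a class that should lack the gene. With each cell thinned to 3000 UMIs the shares were 76.0%, 25.8% and 0.367%, over 50, 1096 and 545 cells, after 17, 105 and 41 shallower cells were left out. MuSC-like cells were far more numerous than mural-like cells, so they contributed more of the Notch3 UMIs of each library (67.1%, 49.6% and 59.8%, against 14.6%, 30.1% and 18.5% from mural-like cells).

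Dll4 and Jag2 UMIs lay mostly in vessel cells, whereas those of Dll1 and Jag1 were spread over further classes. Dll4, the ligand of sprouting and arterial endothelium, stood at 150.1, 107 and 98.6 CPM in endothelial-like cells and at 102, 80.1 and 62.8 CPM in lymphatic-like cells. Both endothelial classes together held 91.1%, 92.3% and 89.8% of the Dll4 UMIs of the libraries, while FAP-like and MuSC-like cells stayed below 1 CPM in each library. At least 1 Dll4 UMI was found in 32.0% of endothelial-like cells, although their median depth was only 3514 UMIs, in 32.5% of lymphatic-like cells and in 0.341% of B cell-like cells. After thinning to 3000 UMIs, which left out 290 of the 784 endothelial-like cells as too shallow, these shares were 26.1%, 19.9% and 0.183%.

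Jag2 separated the endothelia of blood and lymph vessels. It stood at 171, 155 and 147 CPM in endothelial-like cells and at 10.2, 9.42 and 3.69 CPM in lymphatic-like cells, a 16.8-fold difference (6.46 to 62.3) in WT CD and a 16.5-fold difference (8.18 to 38.7) in WT HFD. In KO HFD only 2 lymphatic UMIs were counted. A Jag2 UMI was found in 41.5% of endothelial-like, 3.65% of lymphatic-like and 0.341% of B cell-like cells, and in 36.0%, 1.27% and 0% after thinning. The 0 of 545 thinned B cell-like cells allows a share of cells with a UMI of up to 0.55% by a limit of 3 counts, and of up to 0.675% by the exact Clopper-Pearson interval. Dll1, a ligand used between muscle precursor cells as well as in arteries, was also counted outside the vessels: endothelial-like cells held 43.5, 36.4 and 47.3 CPM, lymphatic-like cells 33.1, 30.6 and 42.5 CPM, and MuSC-like cells 12.0, 21.7 and 21.2 CPM. The endothelial and lymphatic intervals for Dll1 overlapped in each library. Of its UMIs 50%, 42.5% and 34.0% lay in both endothelial classes together, against 89.1%, 82.7% and 80.0% of those of Jag2.

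Jag1, which can act as a ligand from vessel, stromal and muscle cells alike, was not confined to vessels. Endothelial-like cells held 85.3, 77.2 and 124 CPM and mural-like cells 70.6, 78.6 and 78.6 CPM, and these ranges overlapped. FAP-like cells followed at 33.8, 42.1 and 40.1 CPM, next to tenocyte-like, lymphatic-like, MuSC-like and Schwann-like cells with mean levels of 31.8 to 36.3 CPM. Summed over 7 stromal clusters (the FAP-like clusters and 2 unnamed ones with FAP markers, 6651 cells), stroma contributed 70.6%, 75.8% and 69.9% of the Jag1 UMIs of WT CD, WT HFD and KO HFD, and endothelial-like cells 11.4%, 8.91% and 10.7%. The class with the highest level per UMI was therefore not the class that held most of the Jag1 transcripts. Shares of library UMIs follow the mix of cells recovered as well as the level per cell, and those cannot be told apart in such sums.

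The upstream sequences of the ligand and the receptor that mark endothelial-like and mural-like cells are shown because Dll4 was held mainly by endothelial-like and lymphatic-like cells and Notch3 had its highest level in mural-like cells. Both are RefSeq windows of 250 bases before the transcript start in GRCm38.p6, written along the gene's strand: Dll4 at chr2:119325534-119325783 on the plus strand and Notch3 at chr17:32166891-32167140 on the minus strand. Both windows lie outside the body of these protein-coding genes, which GENCODE places at chr2:119325784-119335962 (Dll4) and chr17:32120820-32166852 (Notch3) in GRCm38. Capitals mark GGAAG or its reverse complement CTTCC, the core of the sites that ETS factors of endothelium recognise.
Dll4: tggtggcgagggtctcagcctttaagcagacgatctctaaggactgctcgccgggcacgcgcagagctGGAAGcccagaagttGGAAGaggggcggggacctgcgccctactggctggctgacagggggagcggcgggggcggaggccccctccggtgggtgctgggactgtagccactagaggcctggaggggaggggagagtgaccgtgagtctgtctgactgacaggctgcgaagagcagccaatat
Notch3: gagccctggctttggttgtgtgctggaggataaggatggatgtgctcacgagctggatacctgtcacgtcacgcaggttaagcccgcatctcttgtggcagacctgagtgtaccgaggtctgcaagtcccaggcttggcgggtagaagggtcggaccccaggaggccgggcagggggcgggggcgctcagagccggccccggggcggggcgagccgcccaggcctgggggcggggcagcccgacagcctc
The Dll4 window held GGAAG at bases -182 and -167 from the start, and the Notch3 window held none, while 64.1% of the 32851 promoter windows of the same length held at least one copy on either strand. The core letters of the RBPJ site, TGGGAA or TTCCCA, were in the window of none of the 7 members that had an entry (Notch1, Notch2, Notch3, Dll1, Dll4, Jag1 and Jag2), and 21.6% of all windows held them. The motifs overlap in runs such as TGGGAAG. A match is only a description of these letters, and a missing match says nothing of the factor. Hes1, Hey1 and Heyl had no entry.

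Among the targets, Hey1 followed the blood endothelium. It stood at 192, 162 and 133 CPM in endothelial-like cells and at 22.9, 30.6 and 12.9 CPM in lymphatic-like cells, and the endothelial-to-lymphatic ratio was 8.36 (4.33 to 18.5), 5.30 (3.50 to 8.32) and 10.3 (4.85 to 26.0). MuSC-like cells held 13.2 to 19.4 CPM and FAP-like cells 4.10 to 6.20 CPM. Hes1, the most widely used of the targets, gave another order: lymphatic-like cells held 612, 558 and 641 CPM against 228, 201 and 220.2 CPM in endothelial-like cells, so the blood endothelium held 0.372 (0.311 to 0.445), 0.360 (0.307 to 0.423) and 0.344 (0.289 to 0.408) of the lymphatic level. Mural-like cells held 883, 304.5 and 386 CPM of Hes1, above lymphatic-like cells in WT CD and below them in both HFD libraries. A Hes1 UMI was found in 73.4% of lymphatic-like, 41.5% of endothelial-like, 54.7% of FAP-like and 18.4% of B cell-like cells, and in 60.2%, 36.0%, 29.96% and 9.36% after thinning. Between these endothelial classes Notch1 overlapped. Dll4 was 1.47-fold (1.04 to 2.13), 1.33-fold (0.9825 to 1.82) and 1.57-fold (1.05 to 2.39) higher in endothelial-like cells, the second including 1. Jag1 was 1.97-fold (1.17 to 3.51), 2.98-fold (1.85 to 4.99) and 3.72-fold (2.26 to 6.49) higher there. Hes1, Hey1 and Jag2 also differed between the classes in every library in which they could be compared.

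Heyl was highest in MuSC-like and mural-like cells, the classes with the most Notch3. MuSC-like cells held 67.5, 111 and 90.7 CPM and mural-like cells 88.3, 68.8 and 52.4 CPM, the latter on 5, 14 and 8 UMIs, and the counting intervals of their ratio included 1 in each library. Endothelial-like cells held 3.02 to 5.20 CPM, although Hey1 was highest there. Tenocyte-like cells stood at 28.3 to 49.4 CPM, myofiber-like cells at 27.6, 40.6 and 19.8 CPM (3, 9 and 4 UMIs), cycling cells at 10.2 to 24.7 CPM and FAP-like cells at 12.1 to 16.1 CPM. A Heyl UMI was found in 35.7% of MuSC-like, 1.28% of endothelial-like and 0.683% of B cell-like cells, and in 24.5%, 1.42% and 0% after thinning.

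The 854 cells first named endothelial or mural were clustered again together, again without the Notch genes, and named from further markers. A cell kept the name mural-like only in a pericyte or smooth muscle group, so all 67 mural-like cells lie in such groups by construction, and 3 cells first named mural were left unnamed. Of the 784 endothelial-like cells 669 fell into named groups, with 184 arterial-like (Gja5, Gja4, Bmx, Sema3g and Stmn2), 417 capillary-like (Rgcc, Car4, Gpihbp1 and Cd36) and 68 venous-like cells. The mural-like cells were 38 pericyte-like and 29 smooth muscle-like cells. Jag1 was higher in arterial-like than in capillary-like cells in each library. Arterial-like cells held 196, 201 and 291 CPM of Jag1 in WT CD, WT HFD and KO HFD, and capillary-like cells 49.5, 16.6 and 40.4 CPM. The arterial level was 3.95-fold (2.47 to 6.47), 12.1-fold (5.94 to 27.9) and 7.19-fold (4.05 to 13.7) the capillary one.

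Dll4 showed the same order with a smaller gap. It stood at 278, 201 and 167 CPM in arterial-like and at 120.3, 105 and 109.7 CPM in capillary-like cells, ratios of 2.31 (1.65 to 3.24), 1.92 (1.30 to 2.83) and 1.52 (0.969 to 2.39), the last of which includes 1. Jag2 was also higher in arterial-like cells, at 1.43-fold (1.02 to 1.99), 3.35-fold (2.39 to 4.72) and 2.19-fold (1.48 to 3.28). Dll1 stood at 74.8, 33.5 and 95.7 CPM in arterial-like and at 37.1, 27.6 and 20.2 CPM in capillary-like cells, with ratios of 2.01 (1.05 to 3.87), 1.21 (0.468 to 2.96) and 4.74 (2.01 to 12.9), the second of which includes 1. Notch1 was not higher in arterial-like cells beyond counting error, with ratios of 0.746 (0.545 to 1.01), 1.31 (0.959 to 1.77) and 1.27 (0.858 to 1.89).

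Of the targets, Hey1 stood at 259.9, 313 and 273 CPM in arterial-like and at 199.8, 168 and 113 CPM in capillary-like cells. In venous-like cells it was not counted at all: 0 UMIs in each library, where 3 UMIs would correspond to 46.3, 17.9 and 33.8 CPM. Against those floors, set per library, the arterial level was at least 5.62-fold, 17.5-fold and 8.08-fold higher. Venous-like cells had 2, 1 and 0 UMIs of Dll4, but they did hold Notch1 (108, 65.5 and 135 CPM), Dll1 (46.3, 89.3 and 67.6 CPM, above the arterial level in WT HFD only) and Hes1 (247, 262 and 191 CPM). Hes1 was not arterial: capillary-like cells held 264, 212 and 216 CPM against 189, 104 and 223 CPM in arterial-like cells.

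In the vessel wall, Notch3 stood at 1159, 562 and 710.5 CPM in smooth muscle-like cells (43, 75 and 33 UMIs) and at 409.7, 428 and 433 CPM in pericyte-like cells (8, 30 and 46 UMIs). Arterial-like, capillary-like and venous-like cells had at most 3 UMIs of Notch3 in any library. The smooth muscle-like cells of WT HFD also held 11 UMIs of Dll4, 10 of Jag2 and 20 of Hey1, and the mural-like cells of that library held 1306 CPM of the endothelial markers Flt1, Pecam1, Ptprb and Cdh5, against 35.3 CPM in WT CD and 530 CPM in KO HFD. Endothelial transcripts in mural-like cells thus moved with the ligand values there, and their part in those values was not tested.

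**Figure D2:**
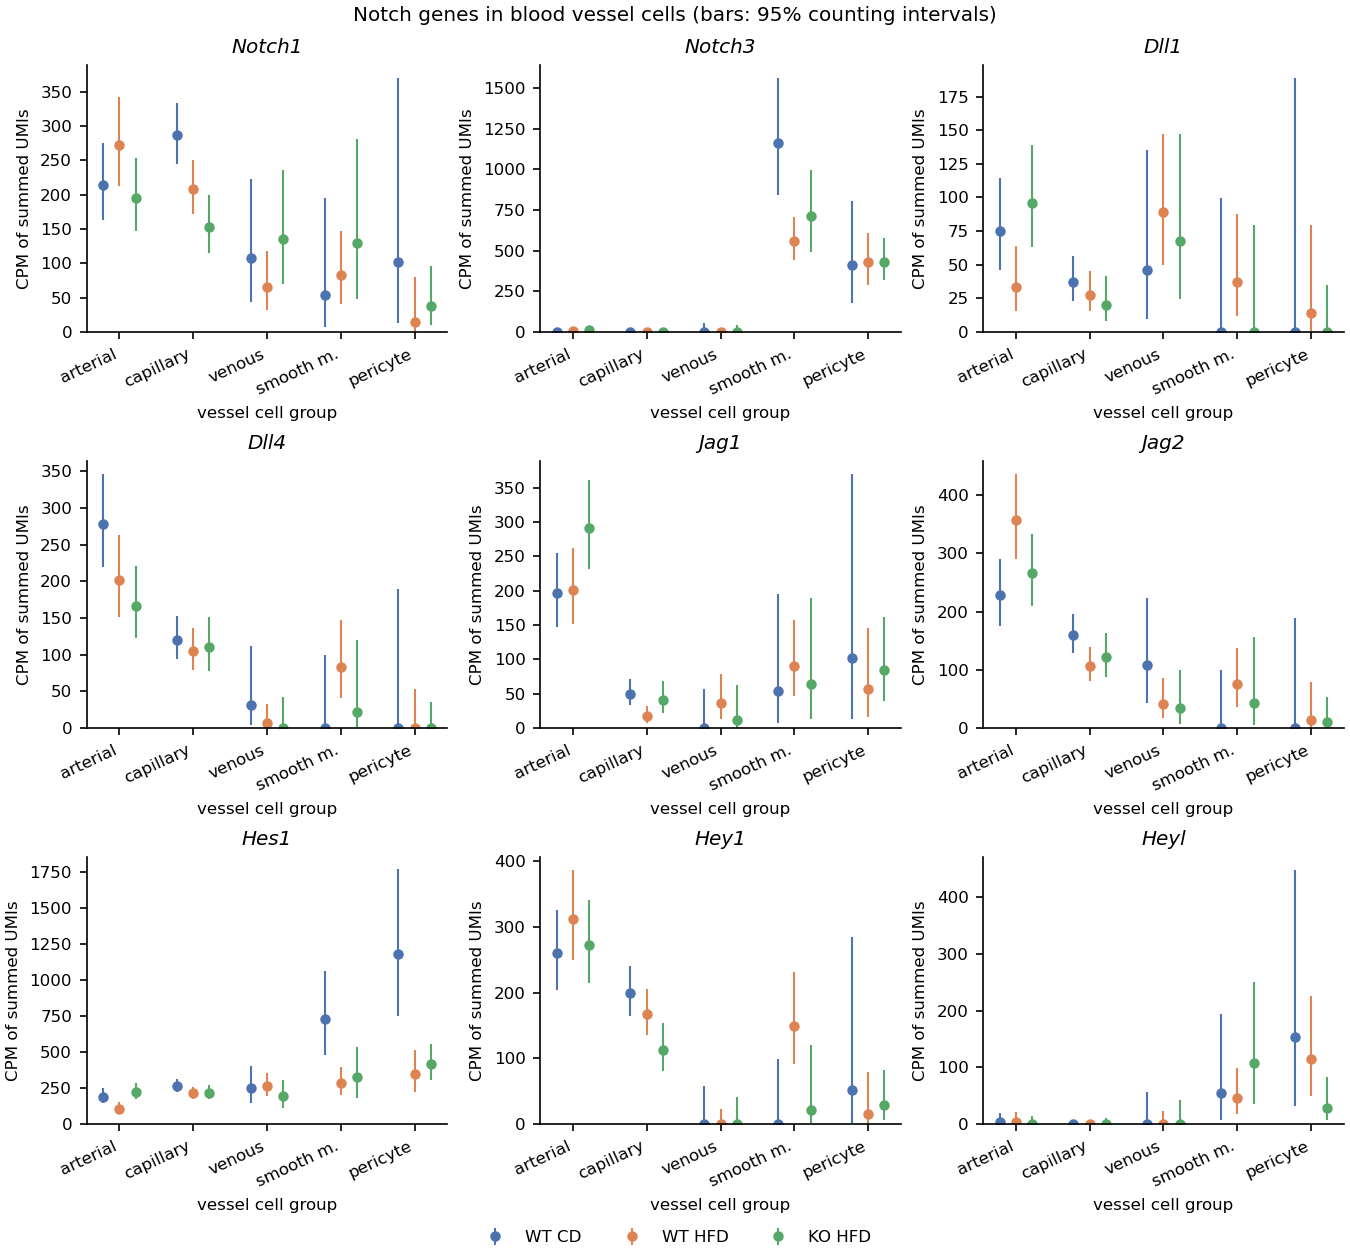
Level in CPM (y axes, linear from 0) of 9 Notch genes in 5 groups of blood vessel cells (x axes) in 3 libraries (colours); points are summed UMIs of a group in a library and bars are exact 95% counting intervals. Arterial-like cells were highest for Jag1 at 196 to 291 CPM, Hey1 was at 0 in venous-like cells, and Notch3 was found in smooth muscle-like and pericyte-like cells.

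Stromal cells were not uniform in the ligand and receptors they held. The FAP-like cells and the 2 unnamed stromal clusters fell into 7 clusters, of which the one led by Dact2, Stmn4 and Wnt10b (240, 312 and 258 cells in WT CD, WT HFD and KO HFD) stood apart for both Jag1 and Notch2. Its Jag1 level was 68.5, 74.3 and 78.3 CPM, and the other 6 clusters ranged from 19.5 to 40.8 CPM. In all 18 comparisons (6 clusters in 3 libraries) the ratio lay between 1.82 and 3.52, with a counting interval above 1. Notch2 in this cluster was 91.3, 81.1 and 100.9 CPM, with ratios of 1.30 to 2.75 to the other clusters and an interval above 1 in 18 of 18. This cluster's lead genes include Fbn1 and Sema3c, an extracellular matrix gene and a secreted guidance factor.

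Heyl was highest in other stromal clusters. The cluster led by Cxcl14, Mme and Hsd11b1 held 36.2, 32.4 and 42.0 CPM, and the one led by Dio2, Pthlh and Thbs4 held 30.6, 24.5 and 34.7 CPM. The Dact2 cluster held 3.79, 3.96 and 1.82 CPM, so the Cxcl14 cluster was 9.57-fold (5.01 to 20.5), 8.19-fold (4.64 to 15.6) and 23.0-fold (9.67 to 71.9) higher. The Dact2 cluster was not alone in this: the cluster led by Col6a5, Sult1e1 and Sfrp4 held 3.14, 2.29 and 6.32 CPM of Heyl, and the one led by Sult1e1 and Gdf10, which was also low for Notch2 (36.7 to 40.8 CPM), held 7.49, 8.06 and 7.2 CPM. Hes1 varied less, from 103 to 189 CPM over the 7 clusters and 3 libraries. The Notch genes took no part in forming these clusters, but the clusters come from the same cells, so the intervals describe counting error and are not a test of the grouping.

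**Figure D3:**
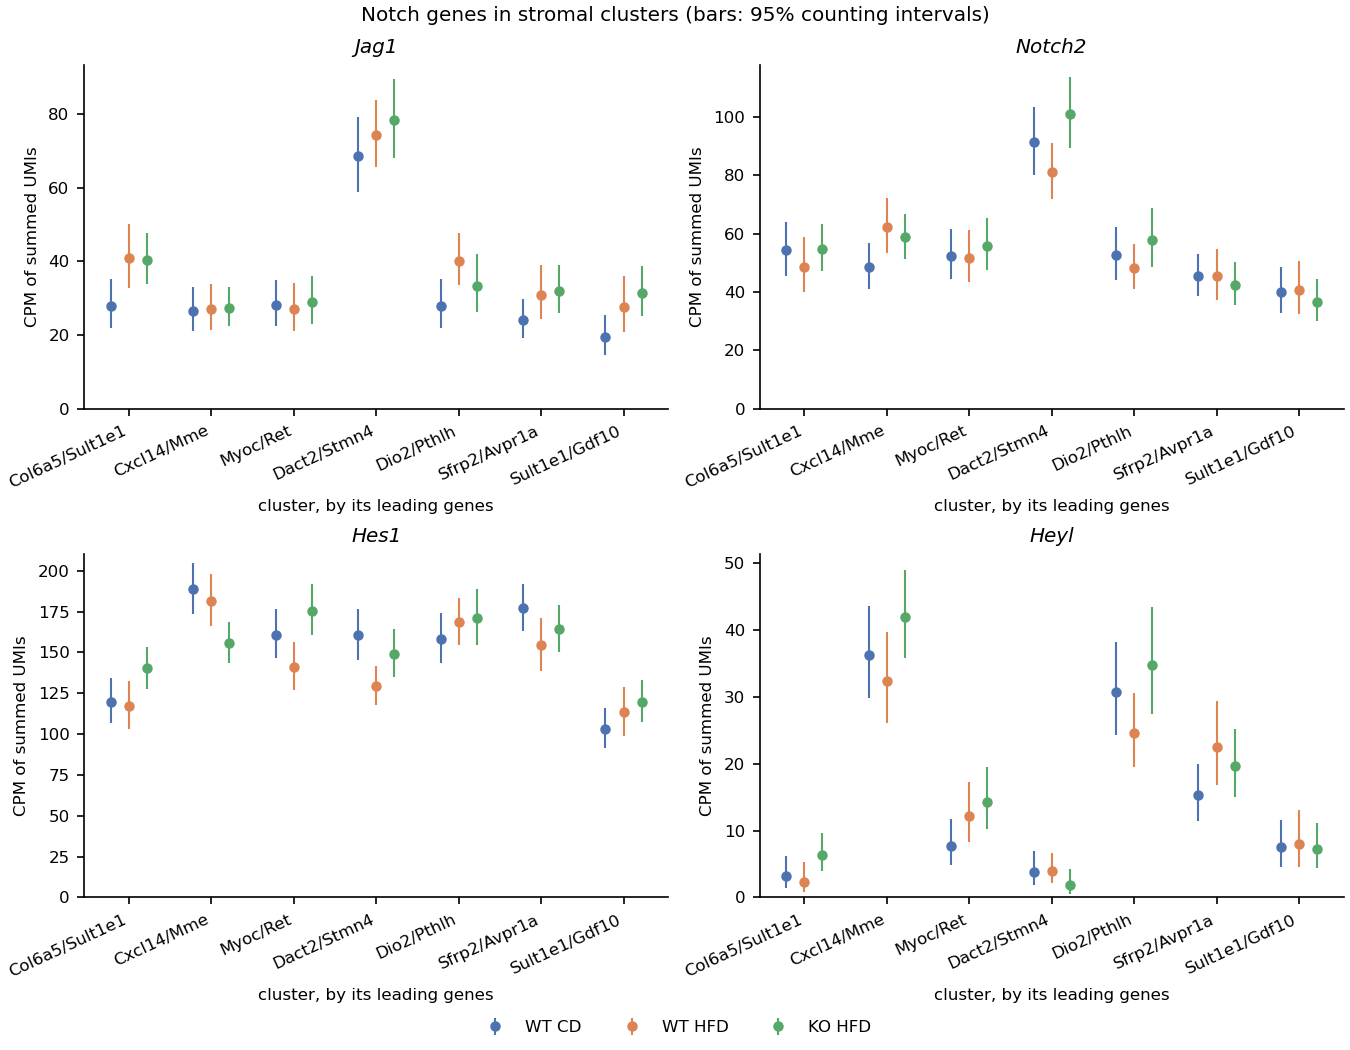
Level in CPM (y axes, linear from 0) of Jag1, Notch2, Hes1 and Heyl in 7 stromal clusters named by leading genes (x axes) in 3 libraries (colours), with exact 95% counting intervals as bars. Jag1 and Notch2 were highest in the Dact2/Stmn4 cluster in each library and Heyl was highest in the Cxcl14/Mme cluster.

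MuSC-like cells divided into 6 states. The smallest, led by Actc1, Mylk4 and the differentiation factor Myog, had 22 cells (0, 13 and 9). It held 0 UMIs of Notch3, 0 UMIs of Heyl and 0 UMIs of Hey1 in both HFD libraries, where 3 UMIs would be 21.3 CPM in WT HFD and 23.2 CPM in KO HFD. The same cells held 85.2 CPM (12 UMIs) and 62.0 CPM (8 UMIs) of Dll1. In the other 5 states Dll1 stayed at or below 25.3 CPM. Notch1 (56.8 and 69.7 CPM) and Notch2 (63.9 and 54.2 CPM) were present in the Myog-led state. In the other 5 states Hey1 ranged from 10.3 to 47.0 CPM in WT HFD and from 3.35 to 44.6 CPM in KO HFD, partly below those floors. A state led by Nes and Stmn1 (3, 28 and 59 cells) held 30.8, 21.1 and 67.2 CPM of Notch3, the first on 1 UMI. The remaining 4 states held 93.9 to 138 CPM in WT HFD and 78.4 to 94.9 CPM in KO HFD, where the interval of the Nes state (47.0 to 93.0 CPM) overlapped theirs.

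At the other end, the state led by Tsc22d3 and Txnip (45, 47 and 72 cells) had the highest Heyl and the highest Hes1 of the states in each library. Its Heyl level was 99.97, 164 and 184 CPM and its Hes1 level 339.9, 183 and 203 CPM. For Heyl in WT CD and WT HFD, and for Hes1 in both HFD libraries, its counting intervals overlapped those of other states. Its summed level of 12 immediate early genes, which dissociation can induce, was 12923, 10574 and 12842 CPM, below the 24150, 30149 and 29919 CPM of the state led by Hspb1, Bambi and Rgs2. In that latter state Hes1 stood at 128, 146 and 181 CPM. A low sum of immediate early genes was not particular to the Tsc22d3 state. The state led by Nes and Stmn1 had 11810, 10816 and 12341 CPM. The Myog-led state had 10612 CPM in WT HFD and 8228 CPM in KO HFD.

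**Figure D4:**
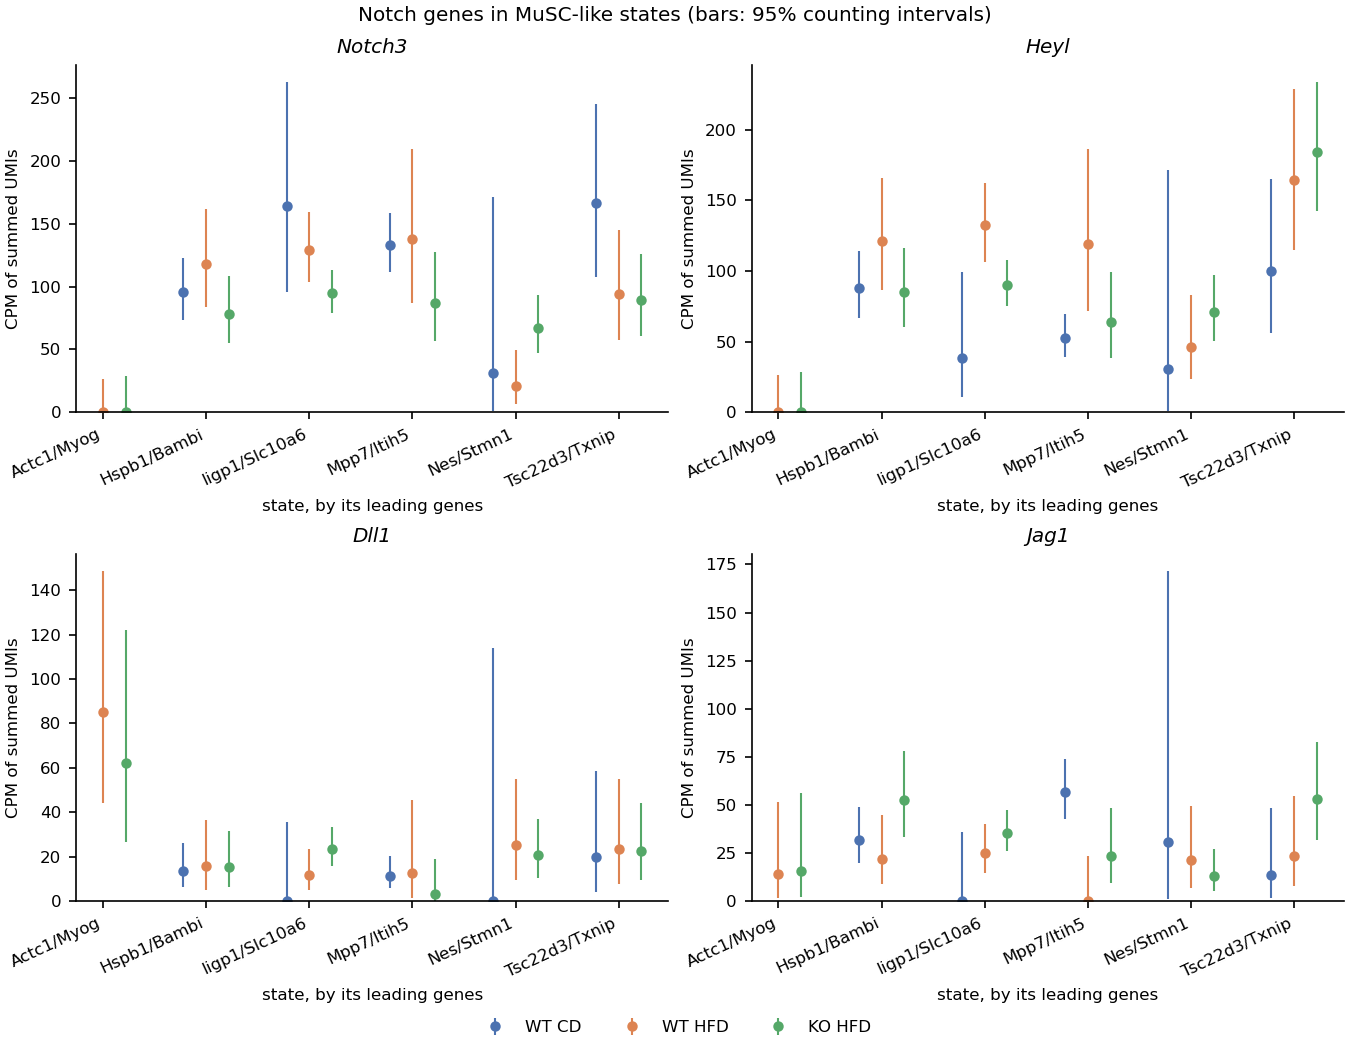
Level in CPM (y axes, linear from 0) of Notch3, Heyl, Dll1 and Jag1 in 6 MuSC-like states (x axes, by leading genes) in 3 libraries (colours), with exact 95% counting intervals as bars; the Actc1/Myog state had no cells in WT CD. That state lay at 0 for Notch3 and Heyl and highest for Dll1.

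Diet and genotype were compared as ratios of CPM within 6 classes, for genes with at least 100 UMIs over both libraries of a pair, and a ratio of at least 1.5 either way was counted. Comparing WT HFD with WT CD, 26 gene and class pairs of the 10 members could be compared. Of these 1 was past the fold upward and 3 downward, where 3.21% (FAP-like) to 28.5% (mural-like) of all genes compared in a class were. Comparing KO HFD with WT HFD, 27 pairs could be compared. Of these 3 were past the fold upward and 0 downward, where 1.96% (FAP-like) to 16.8% (mural-like) of all genes were. Both comparisons share the WT HFD library. All 7 counting intervals left out 1, but these pairs were picked by their ratio on at least 100 UMIs, so this is no separate support. The intervals hold no variation between mice.

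In FAP-like cells 0 of 6 members passed the fold with diet, where 3.21% of the 10274 genes compared did. Jag1 was nearest at 33.8 CPM in WT CD and 42.1 CPM in WT HFD, a ratio of 1.25 (1.10 to 1.41). Between genotypes 1 of 6 members passed, against 1.96% of 10387 genes. That was Hey1, at 4.10 CPM in WT HFD and 6.20 CPM in KO HFD, a ratio of 1.51 (1.07 to 2.15) on 54 and 97 UMIs that lay just past the fold. Its log2 ratio of 0.60 was 0.32 at a finer clustering (resolution 2) and 0.30 with each cell gated by markers, both short of the fold. The 2 unnamed stromal clusters lie outside this class. In the one led by Dio2, Hey1 was 4.04 CPM in WT HFD and 4.90 CPM in KO HFD. In the one led by Sfrp2 it ran the other way, at 6.36 and 5.07 CPM. In FAP-like cells Nr4a1, an immediate early gene, also stood at 262 CPM in WT HFD and 432 CPM in KO HFD, and its part in the Hey1 value was not tested.

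In MuSC-like cells 2 of 6 members passed with diet, beside a background of 15.4% of 3680 genes. Jag1 was 41.4 CPM in WT CD, 20.6 CPM in WT HFD and 34.1 CPM in KO HFD. WT HFD was the low library, at 0.497 (0.325 to 0.746) of WT CD, and KO HFD was 1.66-fold (1.13 to 2.49) above WT HFD. Heyl was 67.5, 111 and 90.7 CPM, with WT HFD 1.64-fold (1.31 to 2.06) above WT CD and KO HFD at 0.819 (0.680 to 0.988) of WT HFD. The median log2 ratio of all genes compared with diet in MuSC-like cells was 0.16, and TMM scaling brought that of Heyl from 0.71 to 0.52, short of the fold. Between genotypes Jag1 was 1 of 7 members past the fold, beside a background of 3.87% of 4596 genes, and its log2 ratio of 0.73 was 0.55, short of the fold, at resolution 2.

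The states of MuSC-like cells were unequally filled. The state led by Iigp1, Slc10a6 and Gal had 16, 109 and 205 cells in WT CD, WT HFD and KO HFD, and the one led by Mpp7 and Itih5 had 211, 31 and 51. Within the Mpp7 state Jag1 was 56.9, 0 and 23.5 CPM on 55, 0 and 7 UMIs, and Heyl was 52.7, 119 and 63.7 CPM. Over all MuSC-like cells the log2 ratio of WT HFD to WT CD was -1.01 for Jag1 and 0.71 for Heyl. With the 5 states present in both libraries weighted alike it was -0.54 for Jag1, short of the fold, and 0.91 for Heyl, and with only the 3 states of at least 30 cells in each library it was -1.18 and 0.75. Both weightings were chosen after seeing the data. In the Iigp1 state Jag1 had 0 UMIs in WT CD, on those 16 cells, and 17 UMIs in WT HFD. The 12 immediate early genes summed to 22856, 21606 and 20212 CPM in MuSC-like cells.

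In endothelial-like cells 0 of 6 members passed with diet, beside 4.98% of 3456 genes. All 6 ratios lay below 1, from 0.711 for Dll4 (0.560 to 0.900; 150.1 CPM in WT CD and 107 CPM in WT HFD) to 0.905 for Jag2, and only the Dll4 interval left out 1. The median log2 ratio of these 6 was -0.20, that of all genes compared 0.02. Nrarp, a target that feeds back on the pathway and is not among the 10, was 231, 131 and 139.8 CPM, and WT HFD lay at a log2 ratio of -0.82 to WT CD. No other gene of the pathway list passed the fold there. Median log2 ratios were 0.09 for the nuclear complex, 0.005 for receptor cleavage and -0.05 for receptor degradation or inhibition, which includes Nrarp. The 1 ligand endocytosis gene compared stood at 0.12 and the 1 further receptor or ligand at -0.09. Between genotypes 1 of 6 members passed, beside 5.06% of 3238 genes. This was Jag1, at 77.2 CPM in WT HFD and 124 CPM in KO HFD, a ratio of 1.60 (1.21 to 2.13), or 0.68 on the log2 scale against 0.52, short of the fold, as a mean over cells scaled one by one. Within the groups it stood at 201 and 291 CPM in arterial-like cells and at 16.6 and 40.4 CPM in capillary-like cells. The other groups ran the opposite way, with 115 and 87.8 CPM in the unnamed vessel cells (20 and 26 UMIs) and 35.7 and 11.3 CPM in venous-like cells (6 UMIs and 1 UMI). Fos and Atf3 were also higher in KO HFD here, by log2 ratios of 0.60 and 0.74, and summed FAP markers were 783 CPM in WT HFD and 1456 CPM in KO HFD. Their part in the Jag1 value was not tested.

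In lymphatic-like cells 0 of 3 members passed in either comparison, beside 11.5% of 1868 genes with diet and 8.59% of 2142 genes between genotypes. In macrophage-like cells 0 of 3 passed in either, beside 9.62% of 4769 and 6.24% of 5691 genes. Hes1 in macrophage-like cells stood at 92.7, 121 and 94.6 CPM, with WT HFD as the high library and intervals of both ratios that left out 1.

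In mural-like cells both members compared passed with diet, beside a background of 28.5% of only 347 genes. Notch3 was 0.573 (0.406 to 0.817) and Hes1 0.345 (0.234 to 0.511) of the WT CD level in WT HFD. Hes1 itself was 883, 304.5 and 386 CPM. The endothelial markers summed to 35.3 CPM in WT CD and 1306 CPM in WT HFD in these cells, and FAP markers to 653 and 1002 CPM, and their part in the Notch3 and Hes1 values was not tested. The WT CD class rested on 14 cells with a median of 2984 UMIs, against 30 cells with 5749 UMIs in WT HFD, and on 8 pericyte-like and 6 smooth muscle-like cells. Within the groups Notch3 was 1159 and 562 CPM in smooth muscle-like cells and 409.7 and 428 CPM in pericyte-like cells. The WT CD pericyte-like value rested on 8 UMIs, too few to tell whether Notch3 differed in that group. Hes1 was lower in WT HFD in both groups. With cells filtered to at least 500 genes and at most 10% mitochondrial UMIs neither could be compared, and as a mean over cells the Notch3 log2 ratio of -0.80 was -0.57, short of the fold. Between genotypes 0 of 2 members passed, beside 16.8% of 494 genes.

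**Figure D5:**
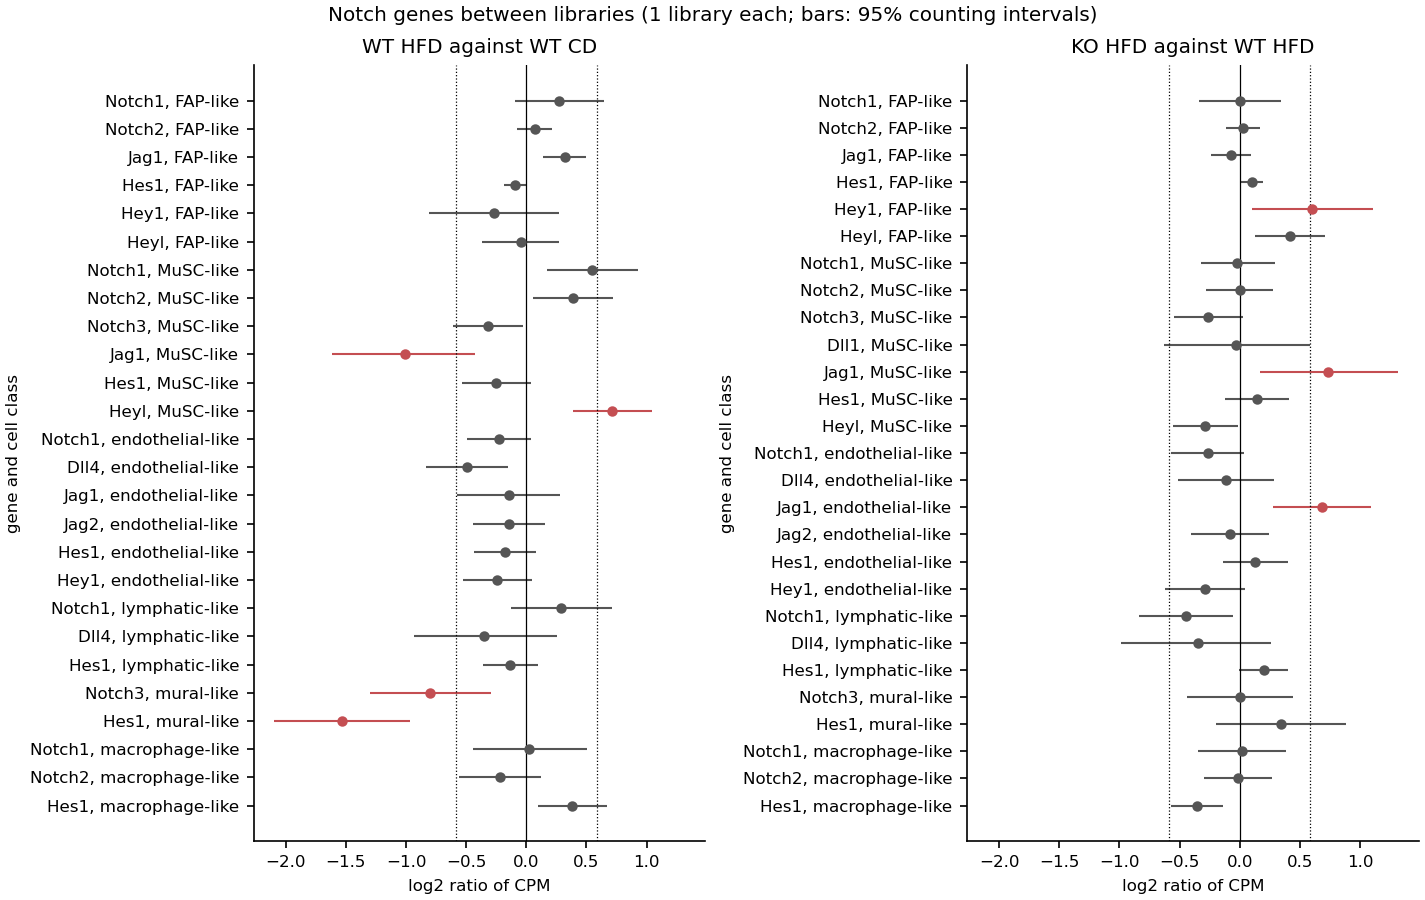
Log2 ratio of CPM (x axes) for each Notch gene and cell class with at least 100 UMIs (y axes), WT HFD against WT CD on the left and KO HFD against WT HFD on the right; bars are 95% counting intervals, dotted lines mark 1.5-fold and red points lie past it. Most points lie within the dotted lines, and the red points are 4 on the left and 3 on the right. Over all genes, by class, 3.21% to 28.5% (left) and 1.96% to 16.8% (right) lay past 1.5-fold.

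The 49 other listed genes of the pathway, which cover its further receptors and ligands, the nuclear complex, receptor cleavage and glycosylation, ligand endocytosis, degradation and further targets, were compared in the same way. Of 85 gene and class pairs compared between diets, 4 were past the fold upward and 1 downward, where 3.21% (FAP-like) to 15.4% (MuSC-like) of all genes were in the 5 classes that had such pairs. Of 93 pairs compared between genotypes, 4 were upward and 2 downward, where 1.96% to 8.59% of all genes were. In MuSC-like cells these included Hes6, a Hes relative of the muscle lineage, at 30.9, 52.5 and 32.2 CPM. All 9 genes of the nuclear complex could be compared in FAP-like cells and 0 passed in either comparison, beside 3.21% and 1.96% of all genes there. In the classes, Notch4, the endothelial receptor, was highest in endothelial-like cells at 78.4, 73.7 and 62.3 CPM. Rbpj, the DNA-binding partner of all the receptors, was highest in macrophage-like cells at 284, 213 and 265 CPM. Mfng, one of the Fringe enzymes that tune receptor and ligand pairing, was highest in endothelial-like cells at 30.7, 54.6 and 35.2 CPM. Hey2 was highest in mural-like cells at 35.3, 24.6 and 13.1 CPM, on 2, 5 and 2 UMIs, and Dll3 was at 0 UMIs in each named class.

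The genes whose class pattern was most like that of a member were found by Pearson correlation of log2(CPM + 10) over the 15 class means, which share libraries and depth, and are a description only. For Jag2 the nearest was Notch4, followed by C1qtnf9 and Gm32688 (r = 0.98 for each). Notch1 (Exoc6, Arhgap31 and Csnk1e) had the least close neighbours, at r = 0.83 to 0.89, and Notch2 (Bmt2, Tiparp and Celf2) stood at r = 0.91. Dll1 was nearest to Tead2, Nxn and Sncaip (r = 0.90 to 0.92), Hes1 to E2f5, Tmem259 and Atr (r = 0.93 to 0.95) and Heyl to Ccl19, Shox2 and Sytl2 (r = 0.94 to 0.96). For Hey1 they were Pik3r3 (r = 0.96), Dusp8 (r = 0.95) and Nrarp (r = 0.94). Dll4 was nearest to Cmtm8, Rasip1 and Btnl9 (r = 0.97 to 0.99). Jag1 was nearest to Plcb4 and to the basement membrane collagens Col4a2 and Col4a1 (r = 0.98, 0.97 and 0.94), and Notch3 to Lin7a, Vstm4 and Cap2 (r = 0.98, 0.97 and 0.97).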

How the data were processed

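Mononuclear cells of the costal diaphragm were sequenced with 10x Genomics 3' chemistry (V3.1), all isolated on the same day per the study's methods. The authors deposited filtered matrices of raw UMI counts made with Cell Ranger (6.1.1 by the submitters' processing notes, 6.1.0 in the matrix headers) on GRCm38/mm10. The 10 members and all lists were chosen with earlier results of these data known.

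From the counts, 30 principal components of 2000 variable genes without the Notch genes were clustered (scanpy 1.11.5, leidenalg 0.10.2, resolution 1, 15 neighbours) into 27 clusters. A cluster took a name where the mean log2 ratio of a marker set was at least 1 and at least 3 markers and 75% of the set were each in 10% of its cells, with no more markers of another set than of its own among its 10 leading genes; a cluster led by Jchain stayed out of the B cell class. Vessel groups needed a ratio of 0.5, and MuSC states came from resolution 0.5. These naming limits were set while clusters were examined, and different names could move cells between classes. The unnamed cells were 25.9% (WT CD), 22.1% (WT HFD) and 23.9% (KO HFD) of a library. Doublets called by Scrublet (151 cells) were kept and left out as an alternative. Counts were summed per class and library and scaled to CPM. Ratios have exact binomial 95% intervals, counts exact Poisson and shares exact Clopper-Pearson ones, all for counting error only, and a floor is 3 UMIs. The text names the 10 members in the classes, the highest genes of the pathway list, and for each member the 3 genes of most similar class pattern among those with at least 20 CPM in a class; the MuSC states, stromal clusters and genes set beside a result were chosen after their values were seen. Promoter windows are from RefSeq, and gene positions from GENCODE vM21 were set beside them. TMM factors came from edgeR 4.0.16.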

Additional observations from a re-analysis of the deposited data

How the results depend on the processing

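No paired analysis was possible because each group had 1 library. The smallest class compared between libraries was the 14 mural-like cells of WT CD, and members below 100 UMIs in a pair of libraries were not compared. The median log2 ratio between the highest class and the next (0.35) was 0.20 as a mean over cells scaled one by one, for which the cause was not tested, and 0.32 to 0.43 under the other 6 alternatives (doublets left out, cells filtered, resolution 0.5 or 2, a gate on each cell, Notch genes among the clustering genes). The number of members with one highest class in each library (5) was 4 to 6 under those 7 alternatives and 5 to 7 with one library left out in turn. The highest class stayed the same for 7 of 10 members under all 7 alternatives; the exceptions were Notch1, Notch2 and Hes1, whose leading classes overlapped. The 4 gene and class pairs past 1.5-fold with diet became 2 with cells filtered to at least 500 genes and at most 10% mitochondrial UMIs. They became 7 with a minimum of 30 UMIs and 2 at a fold of 2. The 3 gene and class pairs between genotypes became 1 at resolution 2, 5 with a minimum of 30 UMIs and 0 at a fold of 2. As a mean over cells they were 3 and 2, and with TMM scaling 3 and 3. A lower UMI minimum admits more genes and a higher fold fewer, and the filter on cells left the mural-like pairs uncompared; for resolution 2 the cause was not tested. Weighting MuSC states alike, chosen after seeing the data, moved the log2 ratio of Jag1 between genotypes from 0.73 to 1.51 over the 3 states of at least 30 cells in each library and to 0.87 over all 6, and with diet from -1.01 to -1.18 over those 3 and to -0.54 over the 5 present in both libraries.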

Other observations

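Beyond the classes compared between libraries, Hes1 in T or NK cell-like cells stood at 87.6 CPM in WT CD (64.8 to 116; 49 UMIs in 88 cells), 264 CPM in WT HFD (212 to 325; 88 UMIs in 51 cells) and 265 CPM in KO HFD (224 to 312; 145 UMIs in 89 cells). A Hes1 UMI was found in 46 of these 228 cells, or 20.2% (15.2% to 26.0%), so a minority of the class carried the counts, while the intervals on the levels cover counting error only. An unnamed cluster led by the monocyte genes Chil3 and Cd300e (17, 33 and 74 cells) held 342, 234 and 184 CPM of Hes1, while the unnamed cluster led by Cd209a, Dcstamp and Upb1 (141, 97 and 196 cells) held 18.8, 18.4 and 29.0 CPM. Thbs1 was highest in neutrophil-like cells, at 3761, 3740 and 1415 CPM on 13, 19 and 25 cells, and next in tenocyte-like cells, at 672, 656 and 287 CPM in WT CD, WT HFD and KO HFD.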
